A study of Arabidopsis thaliana and Ginkgo biloba and Brassica rapa with 14 samples.

Results

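The abundance of every tRNA was described in 1 RNA-seq library of wild type Arabidopsis thaliana seedlings, taken 10 days after germination, by the amino acid a tRNA carries, by its anticodon and by the genome that encodes it. All 100 isodecoder consensus sequences of the deposited abundance table were used, 87 of them above 0 and 13 listed at 0. An isodecoder consensus is 1 sequence that stands for all tRNA genes sharing an anticodon and nearly the same body, here 687 genes in all. The origin of a sequence was read from its label. The chloroplast alone held 24 sequences and 30 genes, the mitochondrion alone 2 sequences and 4 genes, and the nucleus alone 58 sequences and 612 genes. A further 16 sequences occur in more than 1 genome and are called shared. The library is one of 14 in the series, was made from gel purified RNA of about tRNA size, and had no treatment and no second genotype. It is a library of whole seedlings, so that fewer cells or organelles of a kind and less tRNA in each cannot be told apart.

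A tRNA reads a codon of the messenger RNA through its anticodon and delivers the matching amino acid, which an aminoacyl-tRNA synthetase has attached to it. Plant cells translate in the cytosol, in chloroplasts and in mitochondria. Chloroplasts encode a nearly complete set of bacterial-type tRNAs, whereas plant mitochondria use some tRNAs of their own, some of chloroplast descent and some imported from the cytosol. The first base of the anticodon pairs with the third base of the codon, where non-standard pairing lets 1 tRNA read more than 1 codon.

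Values are the authors' RPM, a read number scaled to a common library total, and sum to 198167.77 RPM over the 100 sequences. They rise in steps of 0.342 RPM, the worth of 1 read, from which 579400 tRNA reads were recovered. The 95% intervals beside levels are exact Poisson intervals of these reads, those beside shares are Clopper-Pearson intervals, and neither covers more than counting error, because PCR can copy 1 molecule into several reads. With 1 library there is no replicate error, and nothing was tested. The consensus sequences were 67 to 111 bases long, and dividing RPM by length moved no chloroplast to nuclear log2 ratio given here by more than 0.07. Differences between tRNAs are differences in sequenced reads, and how closely these follow amounts in the tissue was not tested.

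The sequences that the largest differences turn on are shown first, 5′ to 3′ as DNA letters from the deposited reference list, with the anticodon in capitals. They are the chloroplast and nuclear isoacceptors of leucine, histidine and initiator methionine, and the nuclear glutamate tRNAs.
Chloroplast tRNA-Leu(CAA): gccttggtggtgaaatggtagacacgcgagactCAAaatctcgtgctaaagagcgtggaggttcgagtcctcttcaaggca
Nuclear tRNA-Leu(CAA): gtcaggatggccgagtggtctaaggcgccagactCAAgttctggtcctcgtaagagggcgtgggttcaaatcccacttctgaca
Chloroplast tRNA-Leu(TAA): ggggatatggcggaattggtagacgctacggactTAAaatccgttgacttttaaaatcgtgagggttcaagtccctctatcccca
Nuclear tRNA-Leu(TAA): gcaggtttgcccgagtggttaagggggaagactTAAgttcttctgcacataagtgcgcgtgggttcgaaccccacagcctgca
Chloroplast tRNA-His(GTG): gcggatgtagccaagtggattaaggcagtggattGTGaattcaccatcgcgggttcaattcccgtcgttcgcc
Nuclear tRNA-His(GTG): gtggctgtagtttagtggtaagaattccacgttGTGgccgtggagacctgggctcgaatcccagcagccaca
Chloroplast tRNA-Met-i(CAT): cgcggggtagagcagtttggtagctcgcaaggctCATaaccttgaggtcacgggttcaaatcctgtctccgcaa
Nuclear tRNA-Met-i(CAT): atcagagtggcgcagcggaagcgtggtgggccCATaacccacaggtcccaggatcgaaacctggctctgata
Chloroplast tRNA-Glu(TTC): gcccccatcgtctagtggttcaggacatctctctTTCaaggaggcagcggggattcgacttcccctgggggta
Nuclear tRNA-Glu(TTC): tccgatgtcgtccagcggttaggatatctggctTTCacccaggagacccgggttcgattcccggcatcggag
Nuclear tRNA-Glu(CTC): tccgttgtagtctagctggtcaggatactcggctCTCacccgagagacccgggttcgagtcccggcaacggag
By the TAIR10 coordinates of the list, the chloroplast tRNA-Leu(CAA) comes from AtCg00880 at 94276 to 94356 and AtCg01260 at 144293 to 144373 of the chloroplast genome. The chloroplast tRNA-Leu(TAA) comes from AtCg00400 at 46894 to 47490, a span of 597 bases for a tRNA of 85. tRNA-His(GTG) comes from AtCg00010 at 4 to 76, tRNA-Met-i(CAT) from AtCg00320 at 36704 to 36777 and tRNA-Glu(TTC) from AtCg00250 at 30466 to 30538. The first listed loci of the nuclear sequences are AT1G20040 on chromosome 1 from 6948860 to 6948943 for tRNA-Leu(CAA), AT1G02600 on chromosome 1 from 552640 to 552711 for tRNA-His(GTG) and AT1G29210 on chromosome 1 from 10207306 to 10207378 for tRNA-Glu(CTC). Those of the other nuclear sequences shown here are AT2G36510 on chromosome 2 from 15320234 to 15320316 for tRNA-Leu(TAA), AT1G69000 on chromosome 1 from 25941164 to 25941235 for tRNA-Met-i(CAT) and AT1G09110 on chromosome 1 from 2939417 to 2939488 for tRNA-Glu(TTC).

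In the chloroplast, the abundance was dominated by leucine. The 2 chloroplast-only tRNA-Leu sequences held 145665.97 RPM, or 82.3% of all chloroplast-only RPM (95% interval 82.2 to 82.4%). tRNA-His followed with 8.54% (8.46 to 8.61%), tRNA-Met with 2.60% (2.56 to 2.65%), tRNA-Glu with 2.43% (2.39 to 2.48%) and tRNA-Gly with 1.98% (1.95 to 2.02%). The other 10 of the 15 amino acids with a chloroplast-only sequence each held under 1%. Without tRNA-Leu(CAA), the most abundant sequence, leucine held 64.0%, histidine 17.4% and methionine 5.30%. Without leucine, tRNA-His held 48.3% of the remaining chloroplast-only RPM, tRNA-Met 14.7%, tRNA-Glu 13.8% and tRNA-Gly 11.2%.

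The lower end of the chloroplast set lay more than 4 orders of magnitude under its leucine tRNAs. Chloroplast-only sums under 10 RPM were found for Ile with 7.53 RPM (4.72 to 11.4), Ala with 6.16 RPM (3.65 to 9.73) and Lys with 4.10 RPM (2.12 to 7.17). tRNA-Thr had 27.36 RPM, tRNA-Cys 68.4 RPM, tRNA-Arg 73.2 RPM and tRNA-Val 107.39 RPM. tRNA-Pro with 809.23 RPM, tRNA-Gln with 1277.45 RPM and tRNA-Ser with 1367.75 RPM stood between these and glycine. Asn, Asp, Trp and Tyr have chloroplast genes only within shared sequences, and Phe has no sequence whose label includes the chloroplast.

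The nuclear set was led by other amino acids. tRNA-Glu held 905.68 RPM, or 70.7% of nuclear-only RPM (69.3 to 72.2%), from 24 of 612 genes. tRNA-Gly held 12.9% (11.8 to 14.0%), tRNA-Asp 3.69% (3.11 to 4.34%), tRNA-Pro 2.43% (1.96 to 2.98%), tRNA-His 2.06% (1.63 to 2.56%) and tRNA-Val 1.28% (0.947 to 1.70%). The other 14 amino acids each held under 1%. The intervals of Glu, Gly and Asp did not overlap one another, whereas those of Asp, Pro and His fell closer together, and Pro and His overlapped. The share of Glu was 42.7% without tRNA-Glu(CTC), and 6.50% with shared sequences counted as nuclear, where that of Asp was 8.31% and that of Gly 1.18%. Leucine led that wider set, since its shared sequence alone had 9121.74 RPM, and tRNA-Tyr had 1760.05 RPM in shared sequences. The lead of glutamate thus holds for nuclear-only sequences. Without glutamate, tRNA-Gly held 43.9% of the remaining nuclear-only RPM, tRNA-Asp 12.6% and tRNA-Pro 8.31%.

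Most nuclear amino acids were thus close to the limit of the library. tRNA-Phe had 12.31 RPM (8.62 to 17.0), the highest of those under 1%. tRNA-Ser with 10.94 RPM, tRNA-Gln with 10.61 RPM, tRNA-Arg with 10.59 RPM, tRNA-Thr with 10.26 RPM and tRNA-Leu with 9.58 RPM had intervals that all overlapped, so that their order is not resolved. tRNA-Met had 5.13 RPM, tRNA-Lys 4.78 RPM, tRNA-Ile 4.10 RPM, and tRNA-Asn and tRNA-Cys 3.76 RPM each. tRNA-Tyr had 2.05 RPM (0.753 to 4.47) and tRNA-Trp 1.03 RPM (0.212 to 3.00), tRNA-Trp from 3 reads. tRNA-Ala, with 33 genes in 3 sequences, was listed at 0, which allows up to 3 reads or 1.03 RPM.

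**Figure D1:**
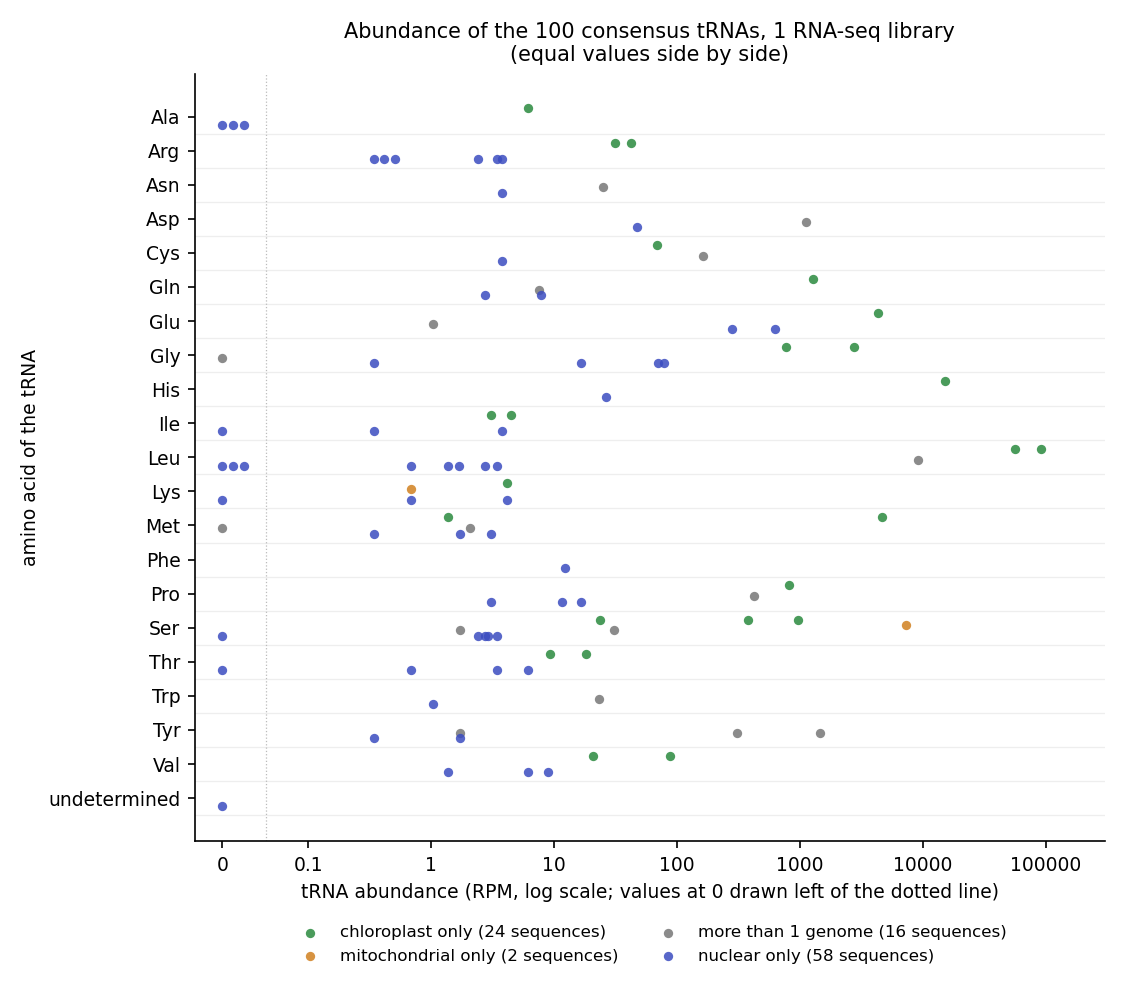
Each point is 1 of the 100 consensus sequences, placed by its RPM (log scale) and by amino acid, with the colour giving its origin and values at 0 drawn left of the dotted line. The chloroplast sequences reach 90090.41 RPM at Leu, the nuclear ones 626.93 RPM at Glu, and all 3 nuclear Ala sequences are at 0.

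The order of amino acids was partly alike in the chloroplast and nuclear sets. Across the 15 amino acids with sequences of both origins, chloroplast and nuclear RPM had a Spearman's rho of 0.571, which is given without a p because all points come from 1 library. Leucine was furthest from this order, first of 15 in the chloroplast with 145665.97 RPM but with only 9.58 RPM in the nucleus. Leaving out leucine gave a rho of 0.710, the highest of the values with 1 amino acid left out, and leaving out Ala gave the lowest, 0.486. Alanine, lysine and isoleucine were low in both sets. Glutamate, glycine and histidine were among the 5 highest in both.

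The nuclear amino acids did not follow the number of their genes closely. Across 20 amino acids, Spearman's rho between nuclear-only RPM and the number of genes was 0.138 (0.041 to 0.286 with each amino acid left out in turn). By single sequence the median did rise with gene number. It was 0.170 RPM for 12 sequences with 1 to 2 genes, 2.57 RPM for 20 with 3 to 9, and 3.59 RPM for 26 with 10 or more. tRNA-Tyr had the most genes, 71, with 2.05 RPM, and tRNA-Pro had 65 genes with 31.13 RPM. tRNA-His had the fewest, 10, with 26.34 RPM. tRNA-Tyr(GTA) alone stood for 70 genes and gave 1 read. The listed span of each of these 70 genes is at least 36 bases shorter than the consensus of 73 bases. The same holds for the 11 genes of the nuclear elongator tRNA-Met-e(CAT), with 3.08 RPM. In plants the nuclear genes of these 2 tRNAs are known to carry an intron, and the consensus has none. A shorter span is not particular to them. The 2 genes of the nuclear tRNA-Ser(GCT)1, listed at 0, have spans 42 bases shorter than the consensus of 80.

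**Figure D2:**
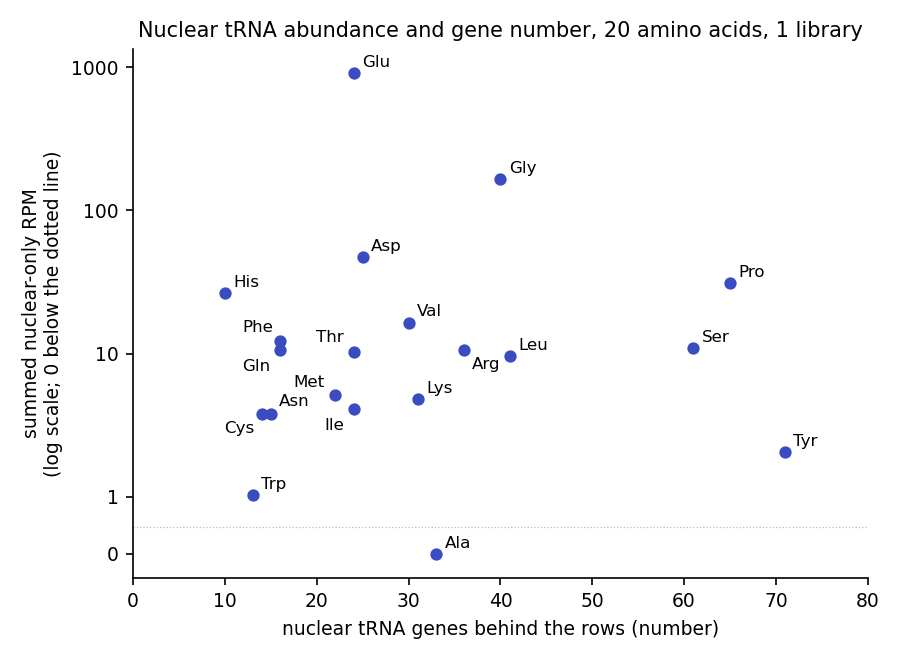
Each point is 1 amino acid, with the number of nuclear-only genes on the horizontal axis and their summed RPM on the vertical axis (log scale, 0 under the dotted line). Glu with 24 genes lies highest at 905.68 RPM, and Tyr with 71 genes lies at 2.05 RPM.

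Chloroplast and nuclear tRNAs were next compared within the same anticodon, though the codons that each reads by non-standard pairing may differ. There were 17 shared anticodons, counting initiator and elongator methionine apart, with 20 chloroplast and 214 nuclear genes. They held 175532.74 RPM in the chloroplast and 502.44 RPM in the nucleus. The chloroplast sequence was higher for 16 anticodons and the nuclear one for 1, and the counting intervals did not overlap for 15, all higher in the chloroplast. Over all 100 sequences, the chloroplast-only ones held 89.3% of RPM, with a median of 77.6 RPM. The nuclear-only ones held 0.646%, with a median of 2.39 RPM. Higher chloroplast values were thus general in this library, and the count is not particular to shared anticodons. The median log2 ratio of chloroplast to nuclear RPM, with 1 RPM added to each, was 3.87, and 6.69 with RPM divided by the number of genes. The 1 RPM was added after the division too, where it exceeds the median nuclear value per gene, 0.289 RPM. The 2 medians are therefore not on the same footing. Without the division the log2 ratio ranged from -0.90 to 14.56, so that the anticodons differed in this ratio far more than the counting intervals are wide.

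The ratio was highest for the leucine tRNAs. tRNA-Leu(CAA), which reads the TTG codon, had 90090.41 RPM in the chloroplast (89747 to 90435), against 2.74 RPM in the nucleus (1.18 to 5.39), a ratio of 32880 (16710 to 76265). tRNA-Leu(TAA), the tRNA for TTA codons, had 55575.56 RPM in the chloroplast (55306 to 55846), against 3.42 RPM in the nucleus (1.64 to 6.29), a ratio of 16250 (8835 to 33885). The nuclear values rest on 8 and 10 reads, so that the ratios are known to within a factor of a few, and their intervals overlap. The chloroplast and nuclear sequences are 63.6% identical for tRNA-Leu(CAA) and 57.8% for tRNA-Leu(TAA).

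Initiator methionine, histidine and glutamine came next. The initiator tRNA-Met-i(CAT), which starts translation, had 4602.25 RPM in the chloroplast (4525 to 4681), against 1.71 RPM in the nucleus (0.555 to 3.99), a ratio of 2691 (1153 to 8290). tRNA-His(GTG), the sole histidine isoacceptor, had 15103.71 RPM in the chloroplast (14963 to 15245), against 26.34 RPM in the nucleus (20.8 to 32.9), a ratio of 573 (459 to 727). tRNA-Gln(TTG) had 1277.45 RPM in the chloroplast (1237 to 1319), against 2.74 RPM in the nucleus (1.18 to 5.39), a ratio of 466 (237 to 1082). The intervals of the last pair of ratios overlap, and that of tRNA-Met-i(CAT) lies above both.

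A middle group of 8 anticodons was 9.20 to 69.6 times higher in the chloroplast. tRNA-Pro(TGG) had 809.23 RPM in the chloroplast and 11.63 RPM in the nucleus, a ratio of 69.6 (49.7 to 101), although the nuclear sequence stands for 44 genes and the chloroplast one for 1. tRNA-Gly(GCC) had 2738.23 RPM in the chloroplast and 69.77 RPM in the nucleus, a ratio of 39.2 (34.2 to 45.3). tRNA-Cys(GCA) had 68.4 RPM in the chloroplast and 3.76 RPM in the nucleus, a ratio of 18.2 (9.95 to 37.0). tRNA-Glu(TTC), which in chloroplasts also serves as the starting material of chlorophyll synthesis, had 4306.75 RPM in the chloroplast and 278.75 RPM in the nucleus, a ratio of 15.5 (14.4 to 16.6). tRNA-Val(TAC) had 86.87 RPM in the chloroplast and 6.16 RPM in the nucleus, a ratio of 14.1 (8.75 to 24.2). tRNA-Arg(TCT) had 41.73 RPM in the chloroplast and 3.76 RPM in the nucleus, a ratio of 11.1 (5.98 to 22.8). tRNA-Gly(TCC) had 770.92 RPM in the chloroplast and 77.98 RPM in the nucleus, a ratio of 9.89 (8.62 to 11.4), and tRNA-Arg(ACG) had 31.47 RPM in the chloroplast and 3.42 RPM in the nucleus, a ratio of 9.20 (4.78 to 19.8). tRNA-Glu(TTC) was the only one of the 17 anticodons with more than 100 RPM on both sides, and its ratio was lower than those of leucine, histidine, initiator methionine, glutamine, Pro(TGG) and Gly(GCC) beyond the counting intervals.

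The remaining anticodons were low in both genomes. tRNA-Thr(TGT) had 18.13 RPM in the chloroplast (13.6 to 23.7), against 6.16 RPM in the nucleus (3.65 to 9.73), a ratio of 2.94 (1.70 to 5.34). tRNA-Ala(TGC) had 6.16 RPM in the chloroplast (3.65 to 9.73) and was listed at 0 in the nucleus, so that the chloroplast level was at least 6-fold higher, taking 3 reads as the most that a count of 0 allows. At the lower limit of the chloroplast count this becomes 3.56-fold. tRNA-Lys(TTT) had 4.10 RPM in the chloroplast (2.12 to 7.17) and 0.68 RPM in the nucleus (0.0828 to 2.47), and these intervals overlap. Its ratio was 6.03 (1.34 to 55.2), an interval that excludes equal levels. The elongator tRNA-Met-e(CAT) was the exception in direction, with 1.37 RPM in the chloroplast (0.373 to 3.50) and 3.42 RPM in the nucleus (1.64 to 6.29), where 2 nuclear sequences were summed, and its intervals overlap too. It rests on 4 chloroplast and 10 nuclear reads, so that a difference in either direction was not detectable at this depth, and per gene the chloroplast value was the higher.

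**Figure D3:**
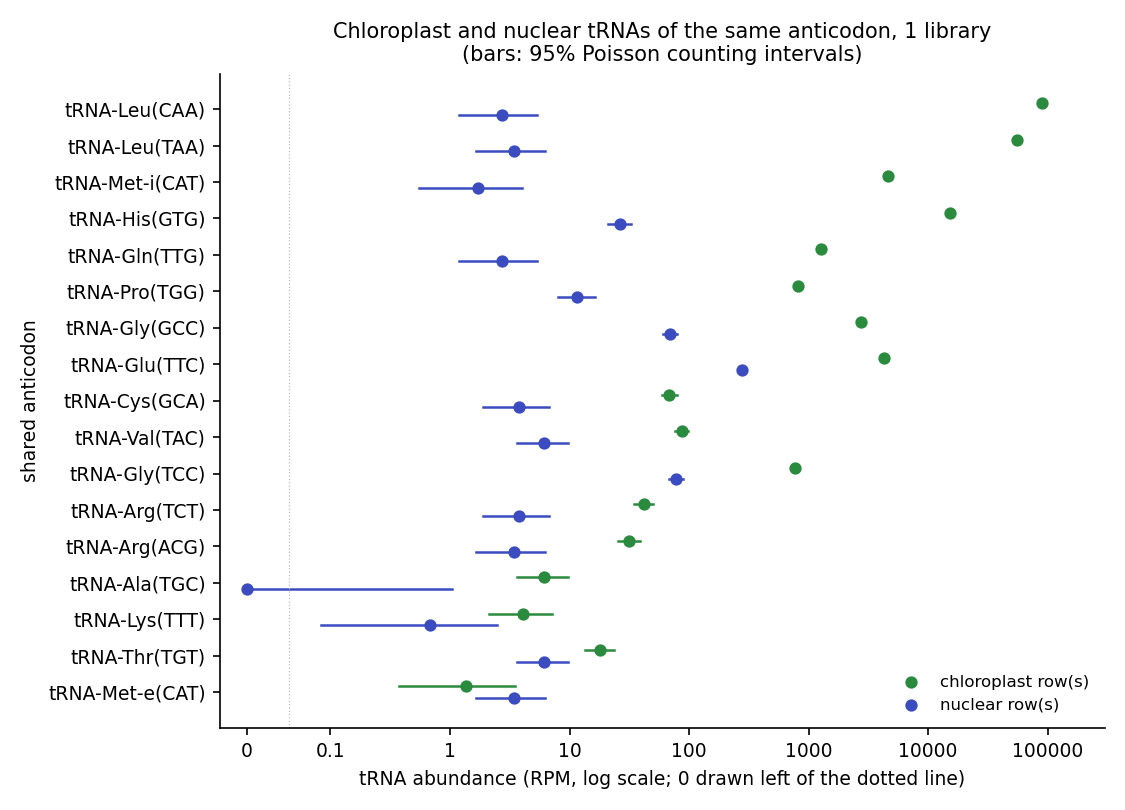
For each of the 17 shared anticodons, the RPM of the chloroplast tRNA (upper point) and of the nuclear tRNA (lower point) is drawn on a log scale with its 95% Poisson counting interval (up to 3 reads for a count of 0), and 0 lies left of the dotted line. The gap is widest at tRNA-Leu(CAA), with 90090.41 RPM in the chloroplast and 2.74 RPM in the nucleus, and tRNA-Met-e(CAT) at the bottom is the only one with the nuclear point on the right.

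Chloroplast and nuclear levels of the same anticodon were only loosely related. Across the 17 anticodons, chloroplast and nuclear RPM had a Spearman's rho of 0.242. The identity of the paired sequences ranged from 47.4 to 76.3%, with a median of 62.2%, and its rho with the log2 ratio was -0.24. The most alike pair was tRNA-Ala(TGC) with 76.3%, and the least alike was tRNA-Met-e(CAT) with 47.4%. Both are given without a p, since the points share 1 library.

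Within an amino acid, the isoacceptors of 1 genome could also differ widely. In the chloroplast, the initiator tRNA-Met-i(CAT) had 4602.25 RPM and the elongator tRNA-Met-e(CAT) 1.37 RPM, a ratio of 3364 (1314 to 12348), although both have the same anticodon. In the nucleus, tRNA-Met-i(CAT) had 1.71 RPM and tRNA-Met-e(CAT) 3.08 RPM, a ratio of 0.556 (0.146 to 1.85), which is not resolved. Of the chloroplast leucine tRNAs, tRNA-Leu(CAA) was 1.62-fold higher than tRNA-Leu(TAA) (1.61 to 1.63). The chloroplast tRNA-Gly(GCC) was 3.55-fold higher than tRNA-Gly(TCC) (3.39 to 3.72), whereas the nuclear tRNA-Gly(GCC) with 69.77 RPM and tRNA-Gly(TCC) with 77.98 RPM had overlapping intervals.

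The other chloroplast families were compared in the same way. The chloroplast tRNA-Val(TAC) was 4.23-fold higher than tRNA-Val(GAC) with 20.52 RPM (3.18 to 5.71), and tRNA-Thr(TGT) was 1.96-fold higher than tRNA-Thr(GGT) with 9.23 RPM (1.21 to 3.25). tRNA-Ser(GGA) had 968.95 RPM, 2.58-fold more than tRNA-Ser(XXX)1 with 375.2 RPM (2.41 to 2.77), and tRNA-Ser(XXX)2 had 23.6 RPM. tRNA-Arg(TCT) with 41.73 RPM and tRNA-Arg(ACG) with 31.47 RPM overlapped, as did tRNA-Ile(CAT)2 with 4.45 RPM and tRNA-Ile(CAT)1 with 3.08 RPM.

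In the nucleus, tRNA-Glu(CTC) had 626.93 RPM from 13 genes, 2.25-fold more than tRNA-Glu(TTC) with 278.75 RPM from 11 genes (2.07 to 2.45). tRNA-Gly(TCC) was 4.75-fold higher than tRNA-Gly(CCC) with 16.42 RPM (3.47 to 6.63). tRNA-Gln(CTG) with 7.87 RPM was 2.88-fold higher than tRNA-Gln(TTG) with 2.74 RPM (1.24 to 7.43). tRNA-Lys(CTT) with 4.10 RPM was 6-fold higher than tRNA-Lys(TTT) with 0.68 RPM, though tRNA-Lys(TTT) rests on 2 reads (1.34 to 55.2). In both pairs the intervals of the levels overlapped, although the interval of the ratio excluded equal levels. tRNA-Val(AAC) with 8.89 RPM and tRNA-Val(TAC) with 6.16 RPM overlapped. tRNA-Pro(AGG) with 16.42 RPM and tRNA-Pro(TGG) with 11.63 RPM overlapped as well, and these 2 sequences are 97.2% identical, so that their reads may have been divided between them by the alignment. The highest nuclear sequences of the other amino acids were tRNA-Thr(TGT) with 6.16 RPM, tRNA-Arg(TCT) and tRNA-Ile(AAT)1 with 3.76 RPM each, and tRNA-Leu(TAA) and tRNA-Ser(GCT) with 3.42 RPM each.

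The sequences listed at 0 were 11 nuclear and 2 shared ones. Besides tRNA-Ala(AGC), tRNA-Ala(CGC) and tRNA-Ala(TGC) with 16, 7 and 10 genes, they were tRNA-Ile(TAT) with 5 genes, tRNA-Leu(CAG) with 3, tRNA-Ser(GCT)1 with 2, and tRNA-Leu(AAG)1, tRNA-Leu(TAA)1, tRNA-Lys(CTT)1, tRNA-Thr(CGT)1 and the tRNA of undetermined type with 1 gene each. The undetermined tRNA had at most 2 stem pairs in any loop as listed. The shared ones at 0 were tRNA-Gly(GCC) and tRNA-Met(CAT)2 of the nuclear and mitochondrial genomes. Each value allows up to 1.03 RPM. Alanine was the only amino acid with every nuclear sequence at 0. The alanine sequences are shown with the chloroplast tRNA-Ala(TGC), which was not at 0.
Chloroplast tRNA-Ala(TGC): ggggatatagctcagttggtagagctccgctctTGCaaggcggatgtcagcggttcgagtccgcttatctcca
Nuclear tRNA-Ala(TGC): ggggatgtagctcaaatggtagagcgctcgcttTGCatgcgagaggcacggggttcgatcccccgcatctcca
Nuclear tRNA-Ala(AGC): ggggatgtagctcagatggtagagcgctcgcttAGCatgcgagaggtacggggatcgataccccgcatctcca
Nuclear tRNA-Ala(CGC): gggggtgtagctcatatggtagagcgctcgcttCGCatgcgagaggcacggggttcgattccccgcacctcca
The chloroplast tRNA has 2 genes, AtCg00940 at 103665 to 104538 and AtCg01190 at 134111 to 134984. The first listed nuclear genes lie on chromosome 1, AT1G08870 at 2846536 to 2846608 for TGC, AT1G06610 at 2025356 to 2025428 for AGC and AT1G64420 at 23933137 to 23933209 for CGC (TAIR10). The chloroplast sequence is 76.3% identical to the nuclear tRNA-Ala(TGC) and 74.7% to tRNA-Ala(AGC). In the deposited methylation table, made from bisulfite treated RNA, position 49 of these 3 nuclear tRNAs has values of 60% for TGC, 46% for AGC and 80% for CGC, each of which required at least 5 reads there.

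The first base of the anticodon gave a similar picture in both genomes. Sequences with C at this base held 53.6% of chloroplast-only RPM (53.5 to 53.8%) and 52.7% of nuclear-only RPM (51.1 to 54.3%). Those with T, read as uridine in the tRNA, held 35.6% (35.5 to 35.8%) in the chloroplast and 30.9% (29.4 to 32.4%) in the nucleus. Those with G held 10.7% (10.6 to 10.8%) in the chloroplast and 13.3% (12.2 to 14.4%) in the nucleus. Those with A, which is usually converted to inosine, held 0.0178% (0.0144 to 0.0219%) in the chloroplast, where tRNA-Arg(ACG) is the only one, and 3.15% (2.62 to 3.76%) in the nucleus.

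In each genome 1 sequence decided the share of C. Per gene, T with 47.8% stood above C with 37.8% in the chloroplast. Without tRNA-Leu(CAA), sequences with C held 5.33% of the rest in the chloroplast, and those with T 72.8%. Without tRNA-Glu(CTC), sequences with C held 7.33% of the rest in the nucleus, and those with T 60.5%. By gene number the nuclear sequences were spread more evenly, with 22.1% of genes for A, 30.6% for G, 25.2% for T and 22.1% for C. The 11 nuclear sequences with A had a median of 2.39 RPM and the highest of them was tRNA-Pro(AGG) with 16.42 RPM. In the chloroplast the 10 sequences with T had a median of 429 RPM, and the medians of the nuclear classes lay between 1.54 and 3.76 RPM. No order is read for the chloroplast sequences with C, whose median was 4.45 RPM over the 5 so labelled and 2303 RPM over the 4 left once tRNA-Ile(CAT)2, with GAT in its loop, was placed with G.

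**Figure D4:**
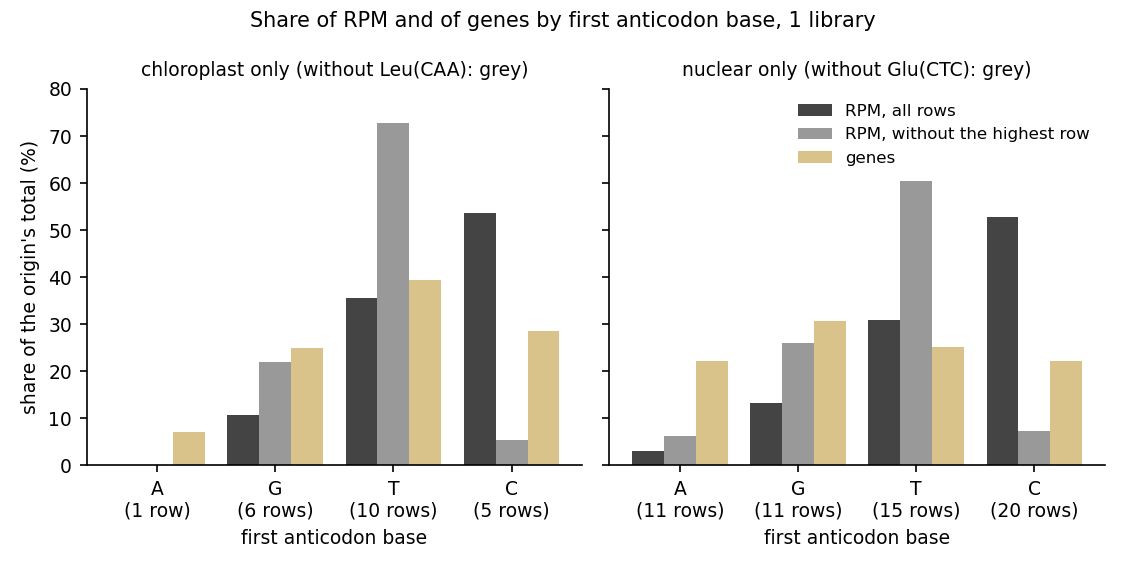
Bars give the share of chloroplast-only RPM (left) and nuclear-only RPM (right) by the first anticodon base, in percent, for all sequences, without the highest sequence, and for the number of genes. C holds 53.6% in the chloroplast and 52.7% in the nucleus, and 5.33% and 7.33% of the rest once tRNA-Leu(CAA) and tRNA-Glu(CTC) are left out.

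Features of the chloroplast sequences that their names do not give were examined next. Leucine and serine tRNAs have a long variable arm, an extra stem between the anticodon arm and the T arm. The 5 chloroplast-only sequences of 80 bases or more, all of these 2 amino acids, held 83.1% of chloroplast-only RPM, against 1.63% of nuclear-only RPM in the 13 nuclear ones, which include tRNA-Tyr(GTA)1 and tRNA-Lys(CTT)1 beside leucine and serine. Without leucine the share was 4.37% in the chloroplast and 0.996% in the nucleus. The 6 chloroplast sequences with 2 listed genes had a median of 13.3 RPM and the 18 with 1 gene a median of 573 RPM. Of the 6, tRNA-Leu(CAA) was the most abundant tRNA of the library, while tRNA-Arg(ACG), tRNA-Val(GAC), tRNA-Ala(TGC), tRNA-Ile(CAT)2 and tRNA-Ile(CAT)1 had 31.47, 20.52, 6.16, 4.45 and 3.08 RPM. Among the 18 with 1 gene, 5 were under 40 RPM, a limit chosen after the values were seen.

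Interrupted genes formed another group. The listed span exceeded the consensus by 10 bases or more for 6 chloroplast sequences, tRNA-Leu(TAA), tRNA-Gly(TCC), tRNA-Val(TAC), tRNA-Ile(CAT)2, tRNA-Ala(TGC) and tRNA-Lys(TTT), and for no nuclear-only sequence. This rule cannot find an intron where the listed span is shorter than the consensus, as for the nuclear tRNA-Tyr(GTA) and tRNA-Met-e(CAT). The longest was the gene of tRNA-Lys(TTT), AtCg00030, with 2631 bases for a tRNA of 72. These 6 had a median of 46.5 RPM and ranged from 4.10 to 55575.56 RPM, against a median of 222 RPM for the other 18, which ranged from 1.37 to 90090.41 RPM. The ranges of the 2 groups overlapped over nearly their whole width. GC content had a rho of 0.121 with RPM across the 24 chloroplast sequences and 0.105 across the 58 nuclear ones.

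The most abundant nuclear tRNAs had a stretch of sequence in common. The 5 nuclear sequences of highest RPM, chosen after their values were seen, accept glutamate, glycine or aspartate, and the longest stretch present in all of them has 13 bases, shown in capitals.
Nuclear tRNA-Glu(CTC): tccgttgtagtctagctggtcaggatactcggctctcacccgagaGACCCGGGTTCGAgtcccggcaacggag
Nuclear tRNA-Glu(TTC): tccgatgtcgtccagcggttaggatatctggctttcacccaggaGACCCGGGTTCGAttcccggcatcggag
Nuclear tRNA-Gly(TCC): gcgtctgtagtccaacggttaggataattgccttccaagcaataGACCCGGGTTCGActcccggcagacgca
Nuclear tRNA-Gly(GCC): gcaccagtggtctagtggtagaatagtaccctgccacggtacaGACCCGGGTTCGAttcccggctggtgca
Nuclear tRNA-Asp(GTC): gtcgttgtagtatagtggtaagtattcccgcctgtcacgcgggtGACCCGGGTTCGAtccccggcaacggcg
The stretch begins 8 bases after the anticodon and covers structural positions 46 to 58, the end of the variable loop and most of the T arm, counted from position 73 at the 3′ end. It was found in these 5 of the 100 sequences (5%) and in no other, and on the opposite strand in 0. The 5 sequences held 1100.63 RPM, or 86.0% of nuclear-only RPM, with 13.6% of the nuclear genes. They ranged from 47.2 to 626.93 RPM, and the 53 nuclear sequences without the stretch from 0 to 26.34 RPM, the highest being tRNA-His(GTG). Since the 5 were picked by their RPM, this describes the library and supports nothing.

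The same 5 tRNAs stood out in the methylation table. Bisulfite treatment converts unmethylated cytosines, and the authors gave the share of reads that kept a cytosine at each listed position. A value of 20% or more at position 50 was listed for 5 nuclear sequences, and these were the 5 with the shared stretch, which includes that position. The values were 93.0% in tRNA-Glu(CTC), 92.7% in tRNA-Glu(TTC), 93.0% in tRNA-Gly(TCC), 90.7% in tRNA-Gly(GCC) and 95.7% in tRNA-Asp(GTC). Nuclear sequences with 2 or more such sites numbered 7, the others being tRNA-Gly(CCC) with 16.42 RPM and tRNA-Gln(CTG) with 7.87 RPM. These 7 had a median of 69.8 RPM and held 87.9% of nuclear-only RPM. The 17 with 1 site had a median of 2.39 RPM and held 4.54%, and the 34 with no listed site of 20% or more had a median of 1.54 RPM and held 7.59%. A value required at least 5 bisulfite reads, and listed sites of some nuclear tRNAs, such as tRNA-Leu(CAA) and tRNA-Ser(AGA), have none. The 34 sequences thus include some for which no value was given, and not only unmethylated ones. A value is more easily obtained for an abundant tRNA, and the part of this in the pattern was not tested.

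**Figure D5:**
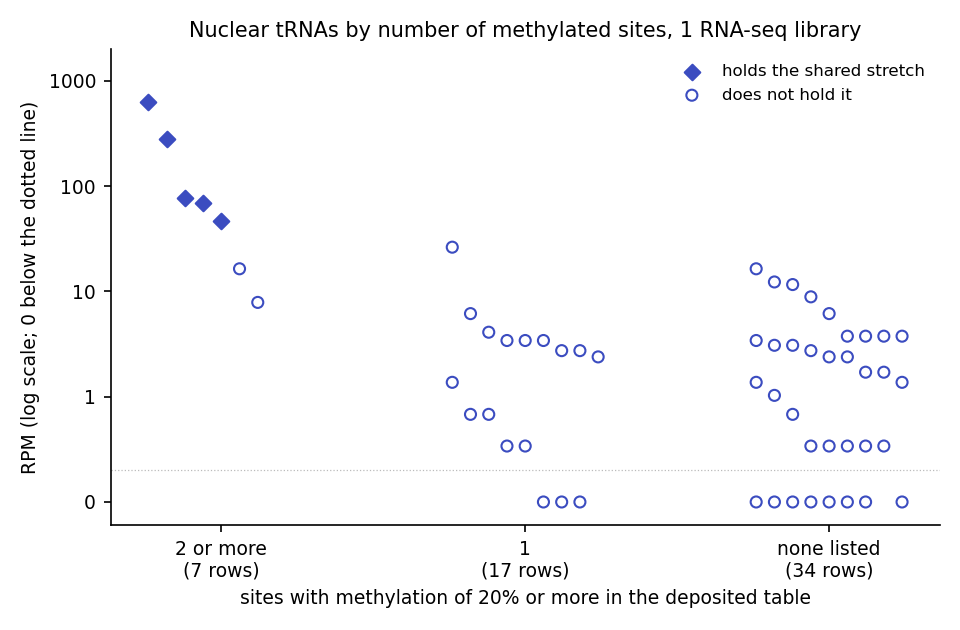
Each point is 1 of the 58 nuclear-only sequences, by the number of listed sites methylated at 20% or more and by its RPM (log scale, 0 under the dotted line), and filled diamonds hold the 13 bases shared by the 5 highest sequences. The 5 diamonds lie at 47.2 to 626.93 RPM among the 7 sequences with 2 or more sites, whose median is 69.8 RPM, against 2.39 RPM with 1 site and 1.54 RPM with none listed.

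The shared and mitochondrial sequences add to some amino acids. The mitochondrial tRNA-Ser(GCT) had 7280.63 RPM, which makes serine the third amino acid of the whole library with 4.39% of all tRNA RPM, after leucine with 78.1% and histidine with 7.63%. The other mitochondrial sequence, tRNA-Lys(TTT), had 0.68 RPM. tRNA-Leu(TAG) of the nuclear and chloroplast genomes had 9121.74 RPM, against 0.68 RPM for the nuclear-only tRNA-Leu(TAG), a ratio of 13335 (3691 to 110117). The chloroplast-only tRNA-Leu(TAA) was in turn 6.09-fold higher than this shared sequence (6.01 to 6.17).

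Other shared sequences also lay above the nuclear-only sequence of the same anticodon. The tRNA-Tyr(GTA) of the nuclear and chloroplast genomes had 1452.91 RPM, against 0.34 RPM in the nuclear-only sequence, a ratio of 4248 (762 to 167826). The tRNA-Asp(GTC) of all genomes had 1112.6 RPM, against 47.2 RPM in the nuclear-only sequence, a ratio of 23.6 (19.9 to 28.2), and tRNA-Trp(CCA) had 23.26 RPM, against 1.03 RPM in the nuclear-only sequence, a ratio of 22.7 (7.43 to 113). tRNA-Asn(GTT) was closer, with 24.97 RPM against 3.76 RPM in the nuclear-only sequence, a ratio of 6.64 (3.50 to 13.9). Of the sequences shared by the nuclear and mitochondrial genomes, tRNA-Pro(TGG) had 420.0 RPM, tRNA-Tyr(GTA)2 305.43 RPM and tRNA-Cys(GCA) 163.14 RPM, the last of these with a consensus of 111 bases. tRNA-Glu(TTC) and tRNA-Gly(GCC) ran the other way. The sequence shared with the mitochondrion had 1.03 RPM for tRNA-Glu(TTC), against 278.75 RPM in the nuclear-only one, and was listed at 0 for tRNA-Gly(GCC), against 69.77 RPM in the nuclear-only one.

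Labels were checked against the sequences by looking for the labelled anticodon after T or C in the middle part of each. The pairs of a stem of 5 around a loop of 7 bases were then counted, and none was required. The labelled anticodon could be placed for 96 of the 97 sequences that name one, with at least 4 stem pairs for 93. The others were the nuclear tRNA-Ile(AAT)1, tRNA-Gly(ACC) and tRNA-Thr(CGT)1 with 2, 2 and 3 pairs. A search for the best loop without the label found another triplet with more pairs in some. These were the chloroplast tRNA-Arg(TCT) (GGT, 5 against 4 pairs) and the nuclear tRNA-Gly(ACC) and tRNA-Thr(CGT)1. Another triplet with as many pairs was found in the nuclear tRNA-Leu(GAG) and tRNA-Thr(CGT), and in tRNA-Glu(TTC) of the nuclear and mitochondrial genomes. The sequence without a place was the chloroplast tRNA-Ile(CAT)2 with 4.45 RPM, whose loop holds GAT, which also reads isoleucine codons, so that its amino acid stands but its first anticodon base is G. The chloroplast tRNA-Ser(XXX)1 and tRNA-Ser(XXX)2, of undetermined anticodon, hold TAA (5 stem pairs) and TTT (4 pairs) in the best loop of the strand listed, neither of them a serine anticodon. On the opposite strand the best loops hold GCT (4 pairs) and TGA (5 pairs), both serine anticodons, and the sequences are printed in that orientation with the isoleucine tRNA.
Chloroplast tRNA-Ile(CAT)2: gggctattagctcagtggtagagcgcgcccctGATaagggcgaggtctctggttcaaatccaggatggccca
Chloroplast tRNA-Ser(XXX)1, opposite strand: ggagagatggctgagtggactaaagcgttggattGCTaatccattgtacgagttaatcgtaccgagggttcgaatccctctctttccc
Chloroplast tRNA-Ser(XXX)2, opposite strand: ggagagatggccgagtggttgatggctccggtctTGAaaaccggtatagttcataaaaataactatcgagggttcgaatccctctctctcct
The genes are AtCg00930 at 102801 to 103601 and AtCg01200 at 135048 to 135848 for the isoleucine tRNA, AtCg00090 at 7785 to 7872 for tRNA-Ser(XXX)1 and AtCg00290 at 35312 to 35403 for tRNA-Ser(XXX)2 (TAIR10). Whether reads of the opposite strand were counted for them is not given in the sources used here.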

How the data were processed

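Total RNA of the seedlings was separated on a polyacrylamide gel, the region of tRNA size was purified, and 1 library was made with an Illumina TruSeq kit and sequenced on a MiSeq. The authors aligned the reads to 100 unconverted consensus sequences with CLC Genomics Workbench, whose version is not given in the sources used here, and deposited 1 RPM value per sequence, with no further normalization stated. By the authors' methods, bisulfite treated RNA is already sheared, so that such samples were handled quickly once in fragmentation buffer. How reads that match several sequences were assigned is not given either. The reference list and the methylation table (percent, A. thaliana column only) were also used as the authors deposited them, with TAIR10 coordinates. Of 687 genes, 631 were found in the RefSeq gene table.

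RPM values were summed as deposited, without a filter or further normalization, by amino acid, anticodon, first anticodon base and origin. A total of 2923785 turned all 87 values above 0 into whole reads within 0.005 RPM, and these reads give the 95% intervals. Ratios of summed RPM per anticodon were taken as log2 with a pseudocount of 1 RPM. Identity came from global alignment. Nothing was tested, and functions were tested on simulated data. Python 3.11.15, NumPy 2.4.6, pandas 2.3.3, SciPy 1.17.1, Biopython 1.88 and Matplotlib 3.10.9 were used.

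The members and lists were chosen with earlier results of these data known. Named tRNAs are the highest nuclear-only and chloroplast-only sequence of every amino acid, those of 100 RPM or more, both members of each shared anticodon, those listed at 0 and those of undetermined anticodon. Others were named after their values were seen. These are the further isoacceptors within an amino acid, the shared sequences under 100 RPM, the near-copies and the sequences with particular sites. Alternatives were a minimum of 5 reads, RPM per gene or per base, other pseudocounts, shared sequences counted in, and single sequences or amino acids left out.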

Additional observations from a re-analysis of the deposited data

Results flagged for a closer look

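The nuclear alanine tRNAs were flagged because they have a signal in data outside the abundance measurement. All 3 were listed at 0 RPM, yet the methylation table gives position 49 a value of 46% in tRNA-Ala(AGC), 80% in tRNA-Ala(CGC) and 60% in tRNA-Ala(TGC), each from at least 5 bisulfite reads. With 1 library, samples could not be compared for outliers and effects could not be compared between groups.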

How the results depend on the processing

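A minimum of 5 reads kept every share of RPM within its counting interval, and the median log2 ratio of chloroplast to nuclear RPM became 4.61 over the 14 anticodons left, all of them higher in the chloroplast. Per gene, with 1 RPM still added, this median was 6.69 and the chloroplast was higher for 17 of 17 anticodons. Pseudocounts of 0.1 and 10 RPM gave medians of 4.15 and 3.15, RPM per base gave 3.90, and leaving out numbered sequences 3.87. The 17 include tRNA-Met-e(CAT), which thus changed direction. The chloroplast order of C and T turned round per gene, and the nuclear order of Glu and Asp with shared sequences counted in, where leucine stood above both. Reading the first anticodon base of the chloroplast tRNA-Ile(CAT)2 from its loop, an alternative chosen after seeing the data, left the chloroplast shares at 35.6% for T and 53.6% for C. Per gene, the chloroplast shares were 76.3% for Leu, 11.5% for His, 3.49% for Met, 47.8% for T and 37.8% for C, and the nuclear shares 67.5% for Glu, 1.73% for Asp and 32.9% for T. Without the sequence of highest RPM, tRNA-Leu(CAA), the chloroplast shares were 64.0% for Leu, 17.4% for His, 5.30% for Met, 72.8% for T, 5.33% for C and 65.6% for a long variable arm. Without tRNA-Glu(CTC), the nuclear shares were 42.7% for Glu, 25.2% for Gly, 7.23% for Asp, 60.5% for T and 7.33% for C. With shared sequences counted in, the chloroplast shares were 82.0% for Leu, 8.01% for His and 2.44% for Met, the nuclear shares 6.50% for Glu, 1.18% for Gly and 8.31% for Asp, and the rho between the genomes 0.555. Per base, an alternative chosen after seeing the data except for the long variable arm, the chloroplast shares were 80.6% for Leu, 9.44% for His, 2.84% for Met, 34.5% for T and 81.3% for a long variable arm. Pearson's r of nuclear RPM and gene number on log10 values was 0.074. With each amino acid left out in turn, Spearman's rho ranged from 0.041 to 0.286 for nuclear RPM with gene number, without Trp and Tyr at the ends, and from 0.486 to 0.710 for the chloroplast with the nuclear set. No paired analysis was possible because the result comes from 1 library and no test.

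Depth limits the nuclear values most. Of the 58 nuclear-only sequences 25 had under 5 reads, so that most amino acids could not be ordered, and no value has a replicate error.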

Other observations

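Several sequences of low RPM resembled a sequence of another origin, amino acid or anticodon. They were named after their sequences were compared. The nuclear tRNA-Ser(GCT)1, listed at 0, was 90.9% identical to the mitochondrial tRNA-Ser(GCT) with 7280.63 RPM and lacked 8 of its 88 bases. tRNA-Ser(GGA) of the nuclear and mitochondrial genomes, with 1.71 RPM, was 95.4% identical to the chloroplast tRNA-Ser(GGA) with 968.95 RPM. The nuclear tRNA-Met-e(CAT)1, with 0.34 RPM, was 93.2% identical to the chloroplast tRNA-Met-e(CAT) with 1.37 RPM. The nuclear tRNA-Ile(AAT)1 had 3.76 RPM from 2 genes and shared its first 32 bases with the chloroplast tRNA-Ile(CAT)1 with 3.08 RPM, whereas tRNA-Ile(AAT) had 0.34 RPM from 17 genes.

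Some nuclear leucine and threonine labels stood on unusual sequences. tRNA-Leu(GAG), with 1 gene and 1.37 RPM, has 72 bases, too few for the long variable arm of leucine tRNAs, and was 83.3% identical to the nuclear tRNA-His(GTG) with 26.34 RPM. tRNA-Leu(AAG)1, listed at 0, was 94.4% identical to tRNA-Pro(AGG) with 16.42 RPM. tRNA-Thr(CGT)1, listed at 0, was 78.6% identical to tRNA-Leu(CAA) with 2.74 RPM. The 9 numbered nuclear sequences, which set apart minor variants of an anticodon, held 0.480% of nuclear-only RPM with 11 genes.

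Grouping by codon number gave a contrast that 1 amino acid carried in each genome. The 3 amino acids with 6 codons held 83.1% of chloroplast-only RPM and 2.43% of nuclear-only RPM, and without leucine 4.61% of the rest in the chloroplast. Of the amino acids with 2 codons, the 5 with a chloroplast-only sequence held 11.7% of chloroplast-only RPM. All 9 of them held 79.4% of nuclear-only RPM, and without glutamate 29.6% of the rest in the nucleus. The 2 shares thus cover different sets of amino acids.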
